A study of Mus musculus with 6 samples.

Results

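Aminoacyl-tRNA synthetases are the enzymes that load each amino acid onto its tRNAs. Their mRNAs were followed in cultured mouse macrophages with and without heme. The members were taken by gene symbol (the letter of an amino acid followed by ars, with the suffix 2 for mitochondrial enzymes, the phenylalanine subunits Farsa and Farsb, and Tarsl2), which gave 37 genes. Eprs, whose spelling falls outside these letters, was added as the enzyme for glutamate and proline. The 38 genes, of 25700 gene identifiers in the count files, comprised 21 cytosolic and 17 mitochondrial synthetases. Gars and Kars, whose products serve both compartments, and Qars were counted as cytosolic.

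The cells were bone marrow–derived macrophages (BMDMs) from C57BL/6J mice aged 8 to 10 weeks, for which no genetic change is given. Marrow cells of both groups were grown with M-CSF at 100 ng/ml, the growth factor that turns them into macrophages. On day 3 the Heme cultures received 300 μM heme-albumin and the Control cultures albumin, and cells were harvested on day 7. Bulk RNA-Seq was performed on 3 Control and 3 Heme libraries, each made from the macrophages of 1 mouse. The comparison asks how heme exposure changes macrophage gene expression.

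Cytosolic synthetases charge the tRNAs that decode nuclear-encoded mRNAs, and several of them sit together in the multisynthetase complex, held by the scaffold proteins Aimp1, Aimp2 and Eef1e1. A separate set, also encoded in the nucleus, is imported into mitochondria to serve the few proteins made there. Many cytosolic synthetase genes are known targets of ATF4, a transcription factor whose translation increases when eIF2α is phosphorylated. Wars is also known as an interferon-γ–inducible gene.

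Because the synthetase genes that move together may be read beside their promoters, the windows from 250 bases before to 50 bases after the annotated start were searched in RefSeq sequence (GRCm38.p6). Promoters were found for 28 of the 38 genes, 14 of each class; of the cytosolic genes, Cars, Hars, Lars, Nars, Rars, Vars and Wars had no entry. The C/EBP-ATF response element, the kind of composite site that ATF4 is known to bind, was searched as TGATGNAA on both strands. It was found in 5 of the 14 cytosolic windows, in 0 of the 14 mitochondrial windows and in 3.97% of all 32851 promoter windows. The 5 windows that hold it are printed with the match in capitals, followed by that of Eprs, the gene with the largest rise, in which these letters were not found. All are written 5′ to 3′ on the strand of the gene.
Aars (chr8:111033592-111033891, plus strand): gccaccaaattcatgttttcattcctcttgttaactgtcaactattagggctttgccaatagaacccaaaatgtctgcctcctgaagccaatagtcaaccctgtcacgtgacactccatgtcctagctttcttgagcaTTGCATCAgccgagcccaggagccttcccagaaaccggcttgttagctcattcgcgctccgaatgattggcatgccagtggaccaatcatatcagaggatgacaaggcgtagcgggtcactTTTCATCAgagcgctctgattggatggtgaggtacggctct
Gars (chr6:55037751-55038050, plus strand): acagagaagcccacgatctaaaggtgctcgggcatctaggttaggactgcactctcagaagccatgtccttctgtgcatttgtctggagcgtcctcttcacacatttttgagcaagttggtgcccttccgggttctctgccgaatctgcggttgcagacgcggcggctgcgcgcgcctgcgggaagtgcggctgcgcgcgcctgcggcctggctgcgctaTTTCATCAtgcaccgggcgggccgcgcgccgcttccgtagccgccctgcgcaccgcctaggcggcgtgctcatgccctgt
Iars (chr13:49681880-49682179, plus strand): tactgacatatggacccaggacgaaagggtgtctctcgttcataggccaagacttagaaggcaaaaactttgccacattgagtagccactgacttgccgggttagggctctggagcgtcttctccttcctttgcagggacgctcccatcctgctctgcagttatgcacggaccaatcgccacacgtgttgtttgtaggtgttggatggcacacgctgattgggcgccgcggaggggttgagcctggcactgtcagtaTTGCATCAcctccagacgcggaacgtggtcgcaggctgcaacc
Tars (chr15:11399609-11399908, minus strand): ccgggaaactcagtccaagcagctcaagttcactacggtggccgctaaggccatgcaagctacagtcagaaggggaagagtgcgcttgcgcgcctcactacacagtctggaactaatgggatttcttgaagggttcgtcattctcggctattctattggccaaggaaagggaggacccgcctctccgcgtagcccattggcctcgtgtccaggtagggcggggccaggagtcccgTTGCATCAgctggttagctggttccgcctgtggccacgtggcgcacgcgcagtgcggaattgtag
Yars (chr4:129189653-129189952, plus strand): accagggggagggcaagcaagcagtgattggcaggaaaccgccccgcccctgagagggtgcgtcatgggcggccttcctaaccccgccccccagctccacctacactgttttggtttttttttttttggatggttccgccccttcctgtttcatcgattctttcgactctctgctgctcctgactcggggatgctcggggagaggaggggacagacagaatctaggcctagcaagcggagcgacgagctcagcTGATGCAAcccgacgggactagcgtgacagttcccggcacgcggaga
Eprs (chr1:185362794-185363093, plus strand): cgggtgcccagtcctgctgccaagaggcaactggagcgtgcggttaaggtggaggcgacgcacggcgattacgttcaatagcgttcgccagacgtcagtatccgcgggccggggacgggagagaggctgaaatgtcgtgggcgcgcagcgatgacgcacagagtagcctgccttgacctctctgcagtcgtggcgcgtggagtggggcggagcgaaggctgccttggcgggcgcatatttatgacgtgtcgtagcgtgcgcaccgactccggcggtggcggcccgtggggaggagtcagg

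Aars held the letters at 2 positions, 112 bases before the start and at base 10 after it. In Gars and Tars the match lay 30 and 15 bases before the start. In Iars and Yars it began at bases 8 and 4 after the start. None of these matches overlapped a match to another motif searched. The antioxidant response element, the site read by NRF2, was searched as TGACNNNGC and stood in 3 cytosolic windows (Aars, Iars and Mars) and 3 mitochondrial windows (Aars2, Lars2 and Nars2), against 12.4% of all windows. The interferon-stimulated response element was found in Qars of the cytosolic and in 0 mitochondrial windows, against 3.44% of all. The gamma-activated site (TTCNNNGAA) was found in Aars, Kars and Nars2, against 8.3% of all. A match is a description of the letters and not of binding.

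The libraries held between 27201038 and 32994595 gene counts. Levels are given as CPM (counts relative to the library total) scaled by the trimmed mean of M values (TMM), and changes as log2 fold changes of Heme over Control from edgeR's quasi-likelihood test. A gene was called higher or lower at a Benjamini-Hochberg adjusted p under 0.05 over the 12433 genes tested. Hmox1, the gene of heme oxygenase-1, which breaks down heme, rose from 584 ± 57.7 CPM to 20999 ± 695 CPM (mean ± SD, n = 3 each), so that the libraries followed their labels. The macrophage markers Adgre1, Csf1r, Cd68, Itgam, Lyz2, Mertk and Fcgr1 were detected in every library. Of these 7 markers, 5 fell in the Heme group, among them Csf1r from 2256 to 1479.7 CPM and Mertk from 93.0 to 24.8 CPM, Itgam rose, and Lyz2 was not called. Of the 10 neutrophil markers 7 were tested and all of those rose, their summed level lying at 6.99 to 11.2 CPM in the Control libraries and at 90.0 to 133 CPM in the Heme libraries. Elane was at 0 in all Control libraries. Elane, Mpo and Cxcr2 passed the filter on low counts only through their Heme libraries, so that only a rise could be called for them. Camp, Ly6g and Retnlg were not tested. Their Control and Heme means were 0.089 and 0.51 CPM for Camp, 0.0099 and 0.11 CPM for Ly6g, and 0.16 and 0.050 CPM for Retnlg. The summed level of the 4 monocyte markers was 33.9 to 36.5 CPM in Control and 204 to 225 CPM in Heme libraries, with 3 higher and 1 lower. Dendritic, erythroid, B, T and NK, mast cell and stromal lists each summed to at most 1.80 CPM in any library, and Cd3e and Lum were at 0 in all 6. Within these lists, Hbb-bt (erythroid), Mcpt8 (mast cell and basophil) and Pdgfrb (stromal) were called higher. They too passed the filter on low counts only through their Heme libraries. The erythroid sum was 0.298 to 0.398 CPM in Control and 0.909 to 1.52 CPM in Heme libraries. The mast cell sum was 0.0895 to 0.193 and 0.808 to 1.80 CPM, and the stromal sum 0.221 to 0.398 and 0.954 to 1.34 CPM. In bulk RNA, fewer cells of a type and less RNA per cell cannot be told apart. The part of these marker shifts in the synthetase values was not tested.

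Synthetase mRNAs of the cytosol rose in the Heme group, and those of the mitochondria moved in both directions. Of the 21 cytosolic genes, 17 were higher, 2 were lower (Qars and Tarsl2) and 2 were not called (Farsa and Vars). Of the 17 mitochondrial genes, 6 were higher, 3 were lower and 8 were not called. Among all tested genes 62.5% were called, 31.7% higher and 30.8% lower, so that the share of higher calls among cytosolic genes lay above that of all genes, while that among mitochondrial genes lay close to it. The median log2 fold change was 0.92 for the cytosolic genes, −0.04 for the mitochondrial genes and 0.00 for all tested genes. Scaling by library sizes alone, without TMM, moved the median of all tested genes by −0.22 and the split of all calls to 2580 higher and 5814 lower. Under that scaling the cytosolic split was 15 higher and 2 lower, and the mitochondrial split turned to 4 higher and 9 lower. Without Eprs, the cytosolic genes comprised 16 higher, 2 lower and 2 not called, with a median of 0.90.

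**Figure D1:**
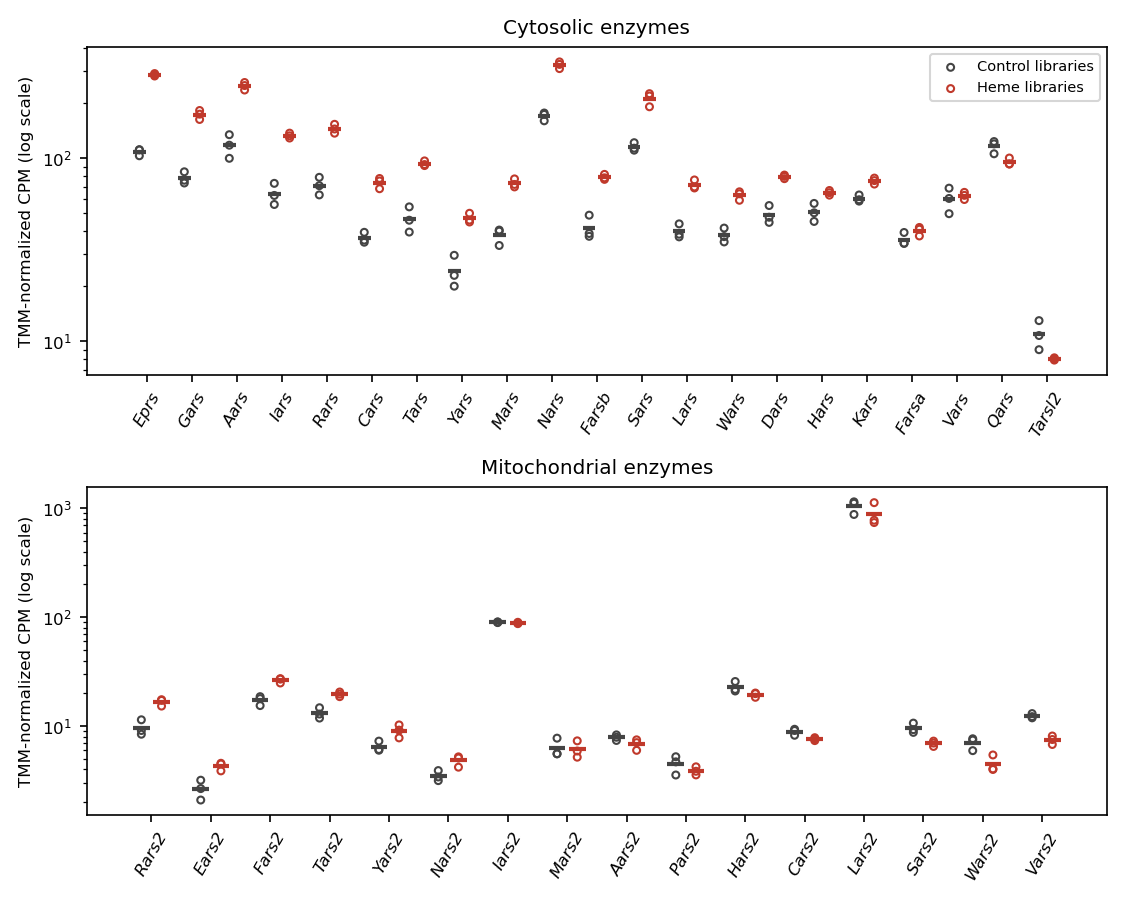
TMM-normalized CPM (log scale) of each synthetase gene in the 3 Control (gray) and 3 Heme (red) libraries, with horizontal bars at the group means; genes are ordered by log2 fold change, cytosolic above and mitochondrial (16 drawn) below. Most cytosolic genes have all Heme points above all Control points, whereas mitochondrial genes lie on both sides and Lars2 stands far above the rest of its class in every library.

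The size of the rise set the classes apart further than the calls did. Of the cytosolic genes, 15 were called and at least 1.5-fold higher, and 7 were at least 2-fold higher (Eprs, Gars, Aars, Iars, Rars, Cars and Tars). Of the mitochondrial genes, 3 were at least 1.5-fold higher and 0 at least 2-fold higher. The shares of all tested genes past these limits were 17.9% and 11.1%. The Control and Heme libraries did not overlap for 19 of 21 cytosolic and 11 of 17 mitochondrial genes, against 68.8% of all tested genes.

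Eprs, the bifunctional enzyme for glutamate and proline and a member of the multisynthetase complex, showed the largest change. Its levels were 111, 103 and 111 CPM in the Control libraries and 287, 282 and 290.3 CPM in the Heme libraries. The groups were far apart and each was narrow. The fold was 2.64, with a log2 fold change of 1.40 ± 0.06 (SE) and an adjusted p of 9.31e-08 by edgeR. Of the 8 enzymes of this complex (Dars, Eprs, Iars, Kars, Lars, Mars, Qars and Rars), 7 were higher and 1 was lower, and all 8 had groups that did not overlap. Their median log2 fold change was 0.89. The 13 cytosolic genes outside the complex counted 10 higher, 1 lower and 2 not called, with a median of 0.92. Among all tested genes, 31.7% were higher, 30.8% were lower and 68.8% had groups that did not overlap.

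Within the complex, Iars, which loads isoleucine, had 72.9, 55.9 and 62.6 CPM in Control and 137, 129 and 133 CPM in Heme libraries. Rars, the arginine enzyme, had 78.7, 63.0 and 70.8 CPM in Control and 145, 137 and 153 CPM in Heme libraries. In both genes the lowest Heme library lay far above the highest Control library, which was replicate 1 each time. Iars changed by 1.06 ± 0.09 and Rars by 1.03 ± 0.09 on the log2 scale (SE; adjusted p = 8.81e-06 and 6.71e-06). Mars, for methionine (log2 fold change 0.94), Lars, for leucine (0.85), and Dars, for aspartate (0.69), rose by less. Mars shares 68 exonic bases with Ddit3 on the other strand, a gene that rose as well, and how reads there were counted is not given.

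Kars, the lysine enzyme that also serves mitochondria, had 63.0, 59.3 and 58.3 CPM in Control and 72.3, 77.9 and 75.5 CPM in Heme libraries. The groups did not overlap, but the rise was small, with a log2 fold change of 0.32 ± 0.06 (adjusted p = 0.00167), and was not called with library sizes alone (0.10, adjusted p = 0.226). Gars, the glycine enzyme of both compartments, had 84.3, 73.3 and 75.8 CPM in Control and 182, 163 and 174 CPM in Heme libraries. All Heme libraries were about equally raised, and the change was 1.15 ± 0.08 (adjusted p = 1.15e-06). Both genes that make an enzyme for both compartments were thus higher, at different sizes.

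Qars went the other way. This glutamine enzyme of the complex had 106, 123 and 119.8 CPM in Control and 100.3, 92.9 and 93.2 CPM in Heme libraries. The highest Heme library lay just under the lowest Control library. The log2 fold change was −0.28 ± 0.07 (fold 0.821, adjusted p = 0.00773), and the call held in each of the 13 alternative analyses. Qars thus fell while the other 7 enzymes of the complex rose.

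**Figure D2:**
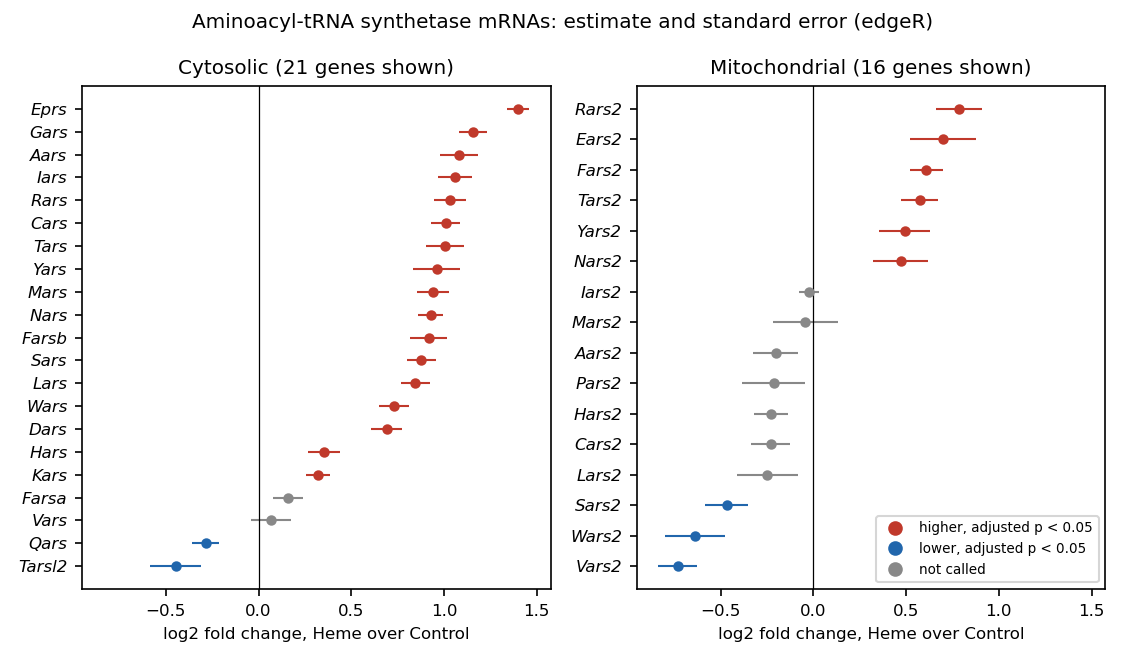
Log2 fold change of Heme over Control for each synthetase gene with its standard error (edgeR; 3 libraries per group), cytosolic on the left and mitochondrial on the right, colored by call at adjusted p under 0.05. The cytosolic genes reach from −0.45 (Tarsl2) to 1.40 (Eprs) and the mitochondrial genes from −0.73 (Vars2) to 0.78 (Rars2); with library sizes alone the signs of Farsa and Vars, neither of them called, turn to negative. Of the mitochondrial genes, 16 are drawn.

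Outside the complex, Aars, for alanine, had 135, 99.9 and 118 CPM in Control and 259, 236 and 249.7 CPM in Heme libraries. It rose by 1.08 ± 0.10 (adjusted p = 1.35e-05). Of its exonic bases, 14.3% are shared with Exosc6 on the same strand, whose mean count was 249.5 per library against 5426 for Aars. Cars, for cysteine, had 39.4, 34.8 and 35.7 CPM in Control and 77.5, 68.1 and 75.2 CPM in Heme libraries. Its log2 fold change was 1.01 ± 0.08 (adjusted p = 3.34e-06). Neither gene had overlapping groups. Nars, for asparagine, was the cytosolic gene with the highest level per exon length, and rose from 174, 177 and 160.2 CPM to 336, 309 and 326 CPM. Its log2 fold change was 0.93 ± 0.07 (adjusted p = 2.21e-06). Yars, for tyrosine (0.96), Sars, for serine (0.88), and Wars, for tryptophan (0.73), were also higher. Hars, for histidine, rose by 0.35 ± 0.09 (adjusted p = 0.00516) and was not called with library sizes alone (0.13, adjusted p = 0.228). Hars and Hars2 share 195 exonic bases on opposite strands, and how reads there were counted is not given.

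The phenylalanine enzyme is made of subunits from separate genes, and these did not move alike. Farsb, the beta subunit, had 48.8, 37.4 and 38.8 CPM in Control and 81.6, 78.2 and 76.7 CPM in Heme libraries. Farsa, the alpha subunit, had 39.3, 34.3 and 34.2 CPM in Control and 41.9, 37.6 and 40.9 CPM in Heme libraries. The groups of Farsb were well apart, and those of Farsa overlapped. The log2 fold changes were 0.92 ± 0.10 (adjusted p = 3.51e-05) for Farsb and 0.16 ± 0.08 (adjusted p = 0.108) for Farsa, which was called without Control replicate 1 (0.22, adjusted p = 0.0219). The read-count ratio of Farsb over Farsa went from 1.15 to 1.97, and the libraries did not overlap (p = 0.1 by an exact permutation test, two-sided, which cannot go lower with 3 against 3 libraries). This ratio was singled out after its values were seen.

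The threonine genes differed too. Tars had 54.2, 39.5 and 45.8 CPM in Control and 96.7, 91.2 and 92.4 CPM in Heme libraries, a rise of 1.01 ± 0.10 on the log2 scale (adjusted p = 2.68e-05). Tarsl2, a second gene for a threonine enzyme outside mitochondria, had 12.96, 10.7 and 8.99 CPM in Control and 8.12, 8.02 and 7.89 CPM in Heme libraries. The Heme values were tight and just under the lowest Control value. Tarsl2 fell by 0.45 on the log2 scale (SE 0.14, adjusted p = 0.018), a call lost without Heme replicate 3 (−0.43, adjusted p = 0.0593). Tars over Tarsl2, also singled out after its values were seen, went from a read-count ratio of 4.28 to 11.7.

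Vars, for valine, was the remaining cytosolic gene without a call. It had 68.6, 49.8 and 60.3 CPM in Control and 62.7, 65.1 and 59.5 CPM in Heme libraries. The Heme libraries fell inside the Control range, and the log2 fold change was 0.07 ± 0.11 (adjusted p = 0.605). The sign turned without Control replicate 2 (−0.06) and with library sizes alone (−0.16).

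Of the mitochondrial genes, Rars2, for arginine, rose the most. It had 11.4, 9.10 and 8.41 CPM in Control and 15.3, 17.5 and 17.2 CPM in Heme libraries. All Heme libraries were above all Control libraries, with a log2 fold change of 0.78 ± 0.13 (adjusted p = 0.000447). Fars2, for phenylalanine, had 15.4, 17.9 and 18.6 CPM in Control and 27.01, 27.3 and 24.9 CPM in Heme libraries, a log2 fold change of 0.61 ± 0.09 (adjusted p = 0.000269). Ears2, for glutamate, had only 104.5 counts per library on average. Its levels were 3.18, 2.09 and 2.66 CPM in Control and 4.55, 3.87 and 4.48 CPM in Heme libraries. It changed by 0.70 with an SE of 0.18, about as large as any of the 38 genes had (adjusted p = 0.00656). Tars2 (0.57), Yars2 (0.49) and Nars2 (0.47) were higher as well. Of these, Yars2 was not called without Heme replicate 1 (adjusted p = 0.0519), and Nars2 lost its call when Control replicate 3 (adjusted p = 0.0727), Heme replicate 1 (0.0705) or Heme replicate 3 (0.0814) was left out. With library sizes alone both calls were lost (Yars2 0.27, adjusted p = 0.112; Nars2 0.25, adjusted p = 0.171).

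The mitochondrial genes for valine, tryptophan and serine fell. Vars2 had 13.01, 12.2 and 11.9 CPM in Control and 6.77, 8.10 and 7.52 CPM in Heme libraries. Wars2 had 5.94, 7.64 and 7.43 CPM in Control and 5.42, 3.99 and 4.04 CPM in Heme libraries. Vars2 was lower by a clear gap, whereas Heme replicate 1 came close to Control replicate 1 in Wars2. Sars2 had 10.6, 8.74 and 9.27 CPM in Control and 6.97, 7.27 and 6.49 CPM in Heme libraries. The log2 fold changes were −0.73 ± 0.11 for Vars2 (adjusted p = 0.000228), −0.64 ± 0.16 for Wars2 (adjusted p = 0.0069) and −0.47 ± 0.12 for Sars2 (adjusted p = 0.00581). These 3 calls held in all 13 alternative analyses.

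Among the 8 mitochondrial genes not called, Lars2 had the lowest log2 fold change (−0.25), and Aars2 (−0.20, adjusted p = 0.171) and Pars2 (−0.21, adjusted p = 0.294) were close to it. Iars2, for isoleucine, had 90.0, 90.6 and 89.3 CPM in Control and 88.4, 87.3 and 89.8 CPM in Heme libraries. The 6 libraries were nearly level, and the change was −0.02 ± 0.06 (adjusted p = 0.728), or −0.25 with library sizes alone (adjusted p = 0.00375). Of its exonic bases, 22.9% lie across from exons of Rab3gap2 on the other strand. Cars2 (−0.23, adjusted p = 0.0786) and Hars2 (−0.23, adjusted p = 0.0573) had groups that did not overlap. Hars2 was called lower with median-of-ratios (RLE) scaling (adjusted p = 0.049) and without Control replicate 1 (−0.29, adjusted p = 0.0191). Mars2, whose change of −0.04 had an SE of 0.18, turned to 0.13 without Control replicate 1 and to 0.07 without Heme replicate 3.

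Lars2, the mitochondrial leucine enzyme, stood apart by its level. It had 880.3, 1116 and 1149.6 CPM in Control and 779, 1130.1 and 742 CPM in Heme libraries. Whether all reads counted for Lars2 came from its mRNA was not tested. Heme replicates 1 and 3 were below every Control library, and Heme replicate 2 lay inside the Control range. The log2 fold change was −0.25 ± 0.16 (adjusted p = 0.211), and without Heme replicate 2 it was −0.46 with an adjusted p of 0.0124. Because Lars2 held most of the reads of its class, the sum over the 17 mitochondrial genes followed it, from 1279 ± 141 CPM in Control to 1124 ± 213 CPM in Heme libraries. Without Lars2, the sum of the other 16 genes was 236, 230.5 and 223 CPM in Control and 241, 240.0 and 242 CPM in Heme libraries, a ratio of 1.05. The 21 cytosolic genes summed to 1476, 1293 and 1345 CPM in Control and 2524, 2353 and 2463 CPM in Heme libraries, a ratio of 1.78. The cytosolic sum was thus higher in every Heme library than in any Control library.

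Levels of different genes were compared per kilobase of annotated exon (CPM divided by the combined length of all exons of the gene, which lowers genes with long or rarely used exons). Lars2, by reads whose source was not tested, ranked first with 94.6 ± 13.2 CPM per kb in Control and 79.7 ± 19.3 in Heme libraries (SD, n = 3). Nars came next, at 39.1 ± 2.02 and 74.3 ± 3.15 CPM per kb, so that Lars2 and Nars were apart in Control but within their spread of each other in Heme libraries. Gars followed with 24.9 ± 1.86 and 55.5 ± 3.13 CPM per kb. In Control libraries Sars (22.4 ± 1.10), Rars (21.9 ± 2.42) and Hars (20.7 ± 2.35) lay within their spread of each other. In Heme libraries Rars (44.9 ± 2.51) and Sars (41.2 ± 3.54) again lay within their spread, and Hars had dropped from place 6 to place 8 of 38. Qars moved furthest down, from place 7 (17.7 ± 1.42 CPM per kb) to place 16 (14.5 ± 0.635). Eprs moved from place 20 (6.00 ± 0.257) to place 15 (15.8 ± 0.244). Iars2 was the mitochondrial gene next after Lars2, at place 16 in Control and place 20 in Heme libraries (10.1 ± 0.0752 and 9.96 ± 0.141 CPM per kb). The lowest places were taken by Nars2 (0.50 ± 0.0545), Ears2 (0.513 ± 0.106) and Mars2 (0.556 ± 0.111) in Control libraries, which did not differ beyond their spread.

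To set the compartments side by side for the same amino acid, the log2 ratio of the cytosolic to the mitochondrial gene was taken within each library. Read-count ratios between genes do not compare molecules, since lengths differ, but the change of a ratio between groups depends on neither length nor scaling. For 19 such ratios over 17 amino acids, 17 were higher in Heme than in Control libraries. The median difference was 0.68 and the range −1.01 to 1.60 on the log2 scale. The exact two-sided permutation test over the libraries gave its smallest possible p of 0.1 for all of these ratios except Farsb over Fars2 (p = 0.4) and Rars over Rars2 (p = 0.2). Adjusted over the 21 ratios computed, the smallest p was 0.111, so that the design cannot pass a threshold of 0.05 here. Ratios that share Eprs, Fars2 or Tars2 are not independent of each other.

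The largest difference was that of Eprs over Pars2, the proline pair. Its log2 ratios were 4.41, 4.46 and 4.97 in Control and 6.22, 6.31 and 6.10 in Heme libraries, a 3.02-fold higher ratio. The tryptophan and serine pairs came next, and in both the cytosolic gene was called higher and the mitochondrial gene lower. Wars over Wars2 had log2 ratios of 2.81, 2.29 and 2.23 in Control and 3.56, 3.88 and 4.02 in Heme libraries, a difference of 1.38. Sars over Sars2 had 3.52, 3.66 and 3.61 in Control and 5.02, 4.72 and 5.07 in Heme libraries, a difference of 1.34. No library of one group reached into the other in these pairs. The alanine (1.30), cysteine (1.24), leucine (1.11) and isoleucine (1.09) pairs followed.

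For arginine both genes were called higher, as they also were for glutamate, asparagine, threonine (Tars and Tars2), tyrosine and Farsb with Fars2. Rars over Rars2 had log2 ratios of 2.79, 2.79 and 3.07 in Control and 3.24, 2.97 and 3.16 in Heme libraries. Heme replicate 2 lay under Control replicate 3, and the difference was 0.24. The libraries of Farsb over Fars2 overlapped too, with a difference of 0.32. The ratio was lower in Heme libraries for Farsa over Fars2 (−0.45) and for Tarsl2 over Tars2, with log2 ratios of −0.18, −0.26 and −0.40 in Control and −1.20, −1.29 and −1.38 in Heme libraries.

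**Figure D3:**
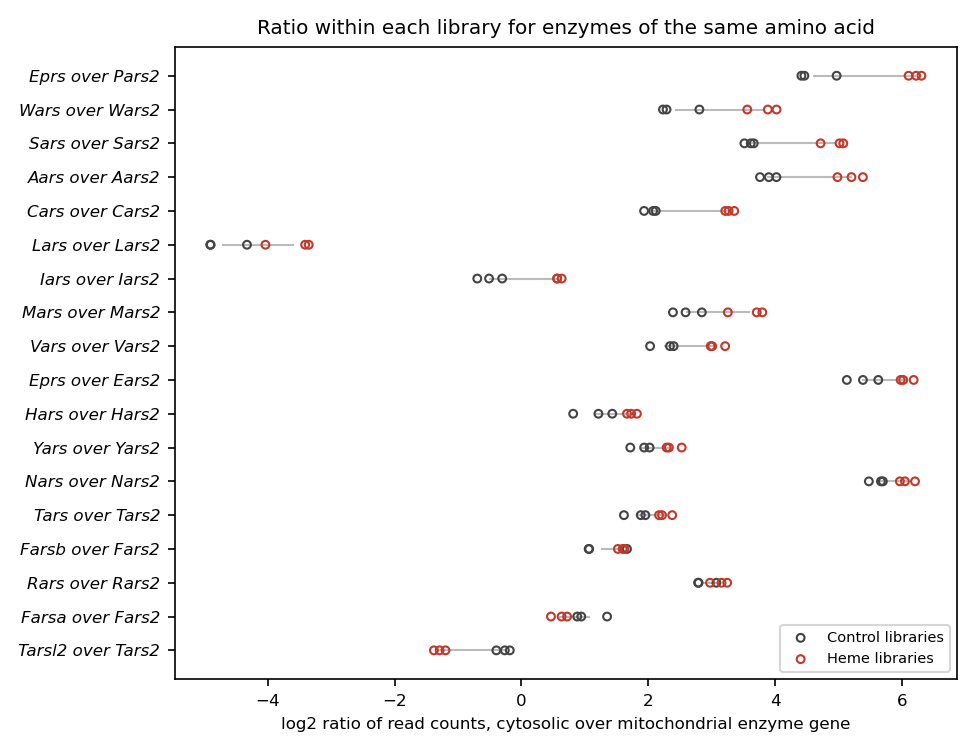
Log2 ratio of read counts of the cytosolic over the mitochondrial synthetase gene for the same amino acid in each of the 3 Control (gray) and 3 Heme (red) libraries, with a line joining the group means; only the shift between groups within a row can be compared, since gene lengths differ. Of the 18 ratios drawn, 16 have the Heme points to the right by their means, and they lie to the left for Farsa over Fars2 and Tarsl2 over Tars2.

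Other genes of tRNA handling and translation were taken from lists written for this comparison. Their calls stand beside 31.7% higher and 30.8% lower calls among all tested genes. Of the 3 scaffold genes of the multisynthetase complex, Eef1e1 (log2 fold change 1.11 ± 0.20, adjusted p = 0.000926) and Aimp2 (0.68 ± 0.11, adjusted p = 0.000549) were higher and Aimp1 was not called (0.12). Eef1e1 had 12.5, 6.74 and 8.62 CPM in Control and 17.5, 22.6 and 20.2 CPM in Heme libraries. Of 13 genes of tRNA maturation and export, 6 were higher and 1 lower, with a median of 0.26. Xpot, which exports tRNA from the nucleus, went from 83.2, 70.0 and 80.0 CPM to 145, 141 and 145 CPM, a log2 fold change of 0.89 ± 0.07 (adjusted p = 6.17e-06). Xpot thus rose by about the median of the cytosolic synthetases. Pop1, of RNase P (0.57), was also higher, and Tsen34, of the tRNA splicing endonuclease, was lower (−0.34, adjusted p = 0.00207). With library sizes alone the split of this list was 2 higher and 5 lower, and its count of lower genes was 2 with RLE scaling, with upper quartile scaling, without the count filter and without Control replicate 1.

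Further lists held genes for later steps of translation. For their counts too, the shares of all tested genes were 31.7% higher and 30.8% lower. Of 8 genes for trans-editing and the mitochondrial amidotransferase, which makes glutaminyl-tRNA from tRNA charged by Ears2, 1 was higher and 2 were lower. Prorsd1 fell (−0.66, adjusted p = 0.000936), and so did Gatc, a subunit of the amidotransferase (−0.33, adjusted p = 0.00937). Dtd2 was called higher (0.28, adjusted p = 0.04) and lost that call in 11 of the 13 alternative analyses, including without any 1 of the 6 libraries. Of 8 genes listed for cytosolic elongation (factors and Eef2k, the kinase of Eef2), 3 were higher and 0 lower. They were led by Eif5a (0.84, adjusted p = 4.71e-05) and Eef1g (0.60, adjusted p = 7.11e-05). The 0 lower calls were 1 by DESeq2, 1 by limma-voom, 1 in edgeR at an unadjusted p under 0.05 (Eef2, −0.17), 1 with upper quartile scaling, 2 with library sizes alone and 2 without Control replicate 1. Eef2k (0.42, adjusted p = 0.0309) was not called without Control replicate 1 (0.31, adjusted p = 0.0687) or 3 (0.33, adjusted p = 0.106) or without Heme replicate 1 (0.44, adjusted p = 0.0676), 2 (0.42, adjusted p = 0.0706) or 3 (0.41, adjusted p = 0.0857). Of 9 mitochondrial translation factors, 5 were higher and 1 lower, with Gfm1 (0.68) and Gfm2 (−0.46) at the ends. Mrrf (0.48) and Mtrf1 (0.46) were also higher. The count of higher genes in this list was 3 without Control replicate 2 or Heme replicate 1, and 1 with library sizes alone, where Mrrf (adjusted p = 0.0541) and Mtrf1 (adjusted p = 0.114) were not called. Of 5 genes of the selenocysteine route, Secisbp2 was higher (0.63, adjusted p = 0.000131) and Eefsec lower (−0.36, adjusted p = 0.0186), the latter not without Heme replicate 1 (−0.30, adjusted p = 0.0792). With library sizes alone 3 of these 5 genes were lower.

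A list of the eIF2α kinases and genes of the ATF4 pathway was set beside the synthetases. None of its 4 kinase genes was called higher, and the higher calls were those of other listed genes. Of 36 listed genes 35 were tested, and 27 were higher, 1 lower and 7 not called, with a median log2 fold change of 1.22. Among all tested genes, 31.7% were higher and 30.8% lower. Slc7a11, the cystine transporter, rose by 4.51 ± 0.18 (adjusted p = 6.47e-08), Chac1, a glutathione-degrading enzyme, by 3.98 ± 0.17 (adjusted p = 8.91e-08), and Slc6a9, a glycine transporter, by 3.54 ± 0.13 (adjusted p = 3.70e-08). Slc7a11 is also a known NRF2 target. Atf4 itself, named here after its values were seen, had 165, 148 and 166 CPM in Control and 387, 355 and 372 CPM in Heme libraries. Its mRNA was higher in each Heme library, with a log2 fold change of 1.22 ± 0.07 (adjusted p = 5.55e-07). Of the kinases that phosphorylate eIF2α, also named after their values were seen, Eif2ak1, the heme-regulated kinase, changed by −0.09 ± 0.07 (adjusted p = 0.287), and Eif2ak4, which senses uncharged tRNA, by 0.13 ± 0.08 (adjusted p = 0.212). Eif2ak2, which is interferon-inducible, was the gene that fell (−1.14 ± 0.12, adjusted p = 3.48e-05), and the list had 2 lower genes without Control replicate 1 and 5 with library sizes alone. mRNA levels do not measure the activity of these kinases or the translation of ATF4.

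Most of the listed interferon-γ response genes moved opposite to Wars. Of 23 listed genes 20 were tested, and 0 were higher, 17 lower and 3 not called, with a median of −1.71. Among all tested genes, 31.7% were higher and 30.8% lower. The count of higher genes in this list was also 0 at an unadjusted p under 0.05, by DESeq2 and by limma-voom. The largest changes were those of Gbp5 (−3.99 ± 0.48, adjusted p = 6.91e-05), Cxcl10 (−3.05 ± 0.43, adjusted p = 0.000188) and Parp14 (−2.88 ± 0.17, adjusted p = 6.45e-07). Gbp5 had only 47, 42 and 75 counts in Control and 1, 3 and 4 in Heme libraries. It passed the filter on low counts through the Control libraries alone, so that only a fall could be called for it. Cxcl10 had 137, 70 and 139 counts in Control and 4, 12 and 17 in Heme libraries. Wars had 41.5, 37.3 and 34.9 CPM in Control and 63.9, 58.9 and 65.6 CPM in Heme libraries. Every Heme library was above every Control library, and the change was 0.73 ± 0.08 (adjusted p = 4.03e-05). Wars thus moved in the direction of most cytosolic synthetases and not in that of most of the interferon-γ list. The cause was not tested.

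**Figure D4:**
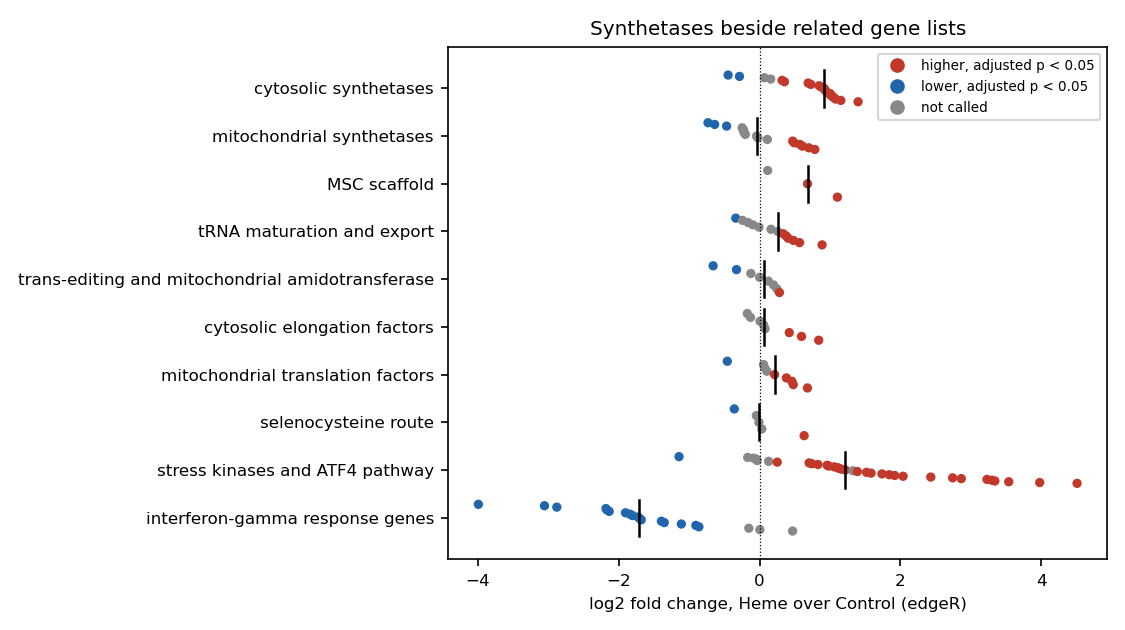
Log2 fold change of Heme over Control (edgeR) for each tested gene of the synthetase classes and of the related lists, colored by call at adjusted p under 0.05, with a black line at the median of each list. The medians are 0.92 for cytosolic and −0.04 for mitochondrial synthetases, 1.22 for the stress kinase and ATF4 list and −1.71 for the interferon-γ list; with library sizes alone the median of all tested genes moves by −0.22.

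The promoter match and the changes can be read together for the 14 cytosolic genes with a window. The 5 with TGATGNAA were all called higher, with log2 fold changes of 1.15 (Gars), 1.08 (Aars), 1.06 (Iars), 1.01 (Tars) and 0.96 (Yars). The 9 without it were Dars, Eprs, Farsa, Farsb, Kars, Mars, Qars, Sars and Tarsl2, and they reached from −0.45 (Tarsl2) to 1.40 (Eprs). Of these 9, Dars, Eprs, Farsb, Kars, Mars and Sars were called higher as well. Over the whole cytosolic class 17 of 21 genes were called higher, against 31.7% of all tested genes. Eprs, the gene with the largest rise, was among the 9 without TGATGNAA. Whether a match bears on the change of its gene was not tested.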

How the data were processed

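RNA of 6 BMDM libraries was measured by bulk RNA-Seq with a stranded TruSeq kit. The deposited values are counts of reads for each Ensembl gene, whole numbers that were not normalized. Per the labels, STAR 2.7.0, featureCounts and GRCm38.p5 were used. For the strand setting, annotation release and read filters, the sources used here give no information, so reads shared by overlapping genes were not resolved. Symbols, positions and exon lengths came from GENCODE M21 (GRCm38.p6), which named 25664 of 25700 identifiers.

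Counts were analyzed in R 4.3.3 with edgeR 4.0.16 (filterByExpr with a minimum count of 10, TMM, glmQLFit, glmQLFTest; condition as the only term; Benjamini-Hochberg over 12433 genes). The procedure was tested on simulated counts in which a small share of genes changed, equally up and down. That setting does not test the scaling for these data, in which 62.5% of tested genes were called. Library totals were 27201038 to 32994595 counts. The genes of the member rule are named, except that a few genes, here and in the related lists, are counted but not reported; each related list is represented by the 3 called genes that changed most and at most 2 that went the other way, and other genes are marked in the text. Members, lists and motifs were chosen with earlier results of these data known. Alternatives were RLE, upper quartile and library-size scaling, no count filter, DESeq2 1.42.0, limma-voom (3.58.1), the replicate number as a block, and leaving out each library.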

Additional observations from a re-analysis of the deposited data

How the results depend on the processing

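Of the 28 called synthetase genes, 23 kept their call and direction under all 13 alternatives; Hars, Kars, Tarsl2, Nars2 and Yars2 did not, with the values given above. Under library sizes alone the signs of Farsa, at −0.065 (adjusted p = 0.509), and Vars, at −0.16, turned, neither of them called. The same scaling gave 9 lower mitochondrial genes, a cytosolic median of 0.69, a mitochondrial median of −0.27, and 2580 higher and 5814 lower genes of all tested. By its construction it omits the TMM factors, which shifts all genes alike. It also made Aars2 (−0.42), Cars2 (−0.45), Hars2 (−0.45), Iars2 (−0.25), Lars2 (−0.47) and Pars2 (−0.44) called lower. Leaving out 1 library each gave 1 to 2 lower cytosolic genes, placed Vars between −0.056 (without Control replicate 2) and 0.18, and placed Mars2 between −0.18 and 0.13, with a positive sign without Control replicate 1 or Heme replicate 3; the cause was not tested.

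Between Control and Heme libraries of one number, deviations from the group means correlated at −0.0998, −0.142 and −0.0683, so the numbers were not taken to pair the mice. With the replicate block, 17 cytosolic genes were higher and 2 lower, 6 mitochondrial genes were higher and 3 lower, the medians were 0.93 and −0.04, and 3671 genes of all tested were higher and 3493 lower. The block was not run on the within-library ratios. Genes with few counts, such as Ears2 and Nars2, are measured less precisely than Eprs or Nars, and 3 libraries per group limit every exact test to p = 0.1.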
